A study of Mus musculus with 53 samples.

Results

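The genes that move iron into, within and out of brain cells were examined in brain tissue of SCA3 and wild-type mice. There were 9 of them, chosen by symbol: the carrier Trf, the importers Tfrc and Slc11a2, the storage subunits Fth1 and Ftl1, the exporter Slc40a1 with its partner oxidase Cp, and the regulators Ireb2 and Aco1. All 9 had a row in the deposited table of 12372 genes, as the choice required. Their presence therefore does not show whether the authors' filter on low values removed other iron genes. Of 87 further iron genes listed below, 68 had a row.

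The study sequenced poly-A RNA from dissected brainstem, cerebellum, cortex and striatum of 14 male C57BL/6 mice aged 74 to 77 weeks. The 6 SCA3 mice were hemizygous MJD84.2 animals, a line in which full-length human ATXN3 with an expanded CAG repeat is driven everywhere by the human promoter, on top of the mouse's own Atxn3. The 8 wild-type mice lacked the transgene and no mouse of either group received a treatment. Each mouse gave at most 1 library per region, for 53 libraries in all: 8 wild-type and 6 SCA3 in brainstem, 7 and 6 in cerebellum, 7 and 6 in cortex, and 8 and 5 in striatum.

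Iron travels in blood and brain fluid bound to transferrin, which cells take up through the transferrin receptor. Inside the cell DMT1 carries the iron out of the endosome, ferritin stores it, and ferroportin releases it again with the help of a ferroxidase. Regulatory proteins IRP1 and IRP2 bind hairpins called iron responsive elements when iron is scarce: they block translation of ferritin and ferroportin messages that carry the hairpin at the 5′ end, and protect the Tfrc message through hairpins at its 3′ end. In brain, oligodendrocytes are known for high iron content and for making transferrin, since myelin synthesis depends on iron-requiring enzymes. Counts of messenger RNA can record a change in message stability, but not a change in translation.

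The hairpin sequences are shown first, since this element is the one described above and 4 of the 9 genes held a match to it. The untranslated regions (UTRs) of all annotated transcripts were searched on the gene's own strand for CNNNNNCAGTGN, in which the 5 bases between the C and the loop had to pair with the bases after the loop. Capitals mark the bulged C and the loop. In the GRCm38 build the Tfrc 3′ UTR held 4 matches, on the plus strand at chr16:32631220-32631246, chr16:32631599-32631625, chr16:32631664-32631690 and chr16:32631711-32631737.
Tfrc 3′ UTR, site 1: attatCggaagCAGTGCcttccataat
Tfrc 3′ UTR, site 2: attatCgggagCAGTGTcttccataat
Tfrc 3′ UTR, site 3: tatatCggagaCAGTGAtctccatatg
Tfrc 3′ UTR, site 4: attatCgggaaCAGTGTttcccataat

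The 5′ UTRs of the ferritin subunits and of the exporter held 1 match each: Fth1 on the plus strand at chr19:9982733-9982759, Ftl1 on the minus strand at chr7:45459780-45459806, and Slc40a1 on the minus strand at chr1:45925466-45925492.
Fth1 5′ UTR: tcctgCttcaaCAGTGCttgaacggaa
Ftl1 5′ UTR: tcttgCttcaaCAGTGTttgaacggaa
Slc40a1 5′ UTR: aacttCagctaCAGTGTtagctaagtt

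Of 20899 genes with an annotated 5′ UTR, 30 (0.144%) held a match, 3 of them listed here, and of 21022 genes with a 3′ UTR, 128 (0.609%) did, 1 of them listed here. These letters were not found in the annotated UTRs of Trf, Cp, Slc11a2, Ireb2 or Aco1, which says nothing of elements of another form. A match is a description of the sequence and was not tested for binding.

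Depth and dissection bear on every value below. Library totals lay between 31680939 and 76703758 counts, and the smallest count of any of the 9 genes in any library was 250 (Slc40a1), the largest 269567 (Fth1). Marker sums followed the region labels for cerebellum, where every library had at least 4275 CPM (counts-per-million) over the cerebellar markers against at most 477 elsewhere. Striatal markers overlapped between striatum (2693 to 11220 CPM) and cortex (912.1 to 4795 CPM), and only 3 of 10 brainstem markers had a row in the table. The wild-type striatal libraries of mice 7267058 and 7267059 stood apart, with thalamus markers at 5.16 and 8.34 times the striatal median. The RNA integrity number (RIN) of brainstem averaged 7.78 ± 0.264 (SD) over 6 SCA3 libraries and 7.24 ± 0.424 over 8 wild-type ones, and an exact two-sided permutation test of the difference gave p = 0.011. Of 8 red blood cell markers, 0 had a row, so residual blood could not be gauged.

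Wild-type levels differed widely among the 9 genes. Compared per kilobase of exon, the ferritin heavy subunit Fth1 was the most abundant in all 4 regions, at 1040 to 3350 CPM per kb. Trf followed in 3 regions, at 495 in brainstem, 273 in striatum and 171 in cerebellum, and was close to Ftl1 in cortex (107 and 113 CPM per kb). Tfrc (19.9 to 28.6), Ireb2 (15.4 to 19.4), Slc11a2 (12.4 to 13.3) and Aco1 (9.24 to 11.4) were intermediate, and Cp (2.74 to 5.15) and Slc40a1 (2.07 to 3.48) were the least abundant. The ferritin levels are uncertain in that only unique alignments were kept and near-copies are annotated as pseudogenes, 2 of Fth1 and 3 of Ftl1.

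**Figure D1:**
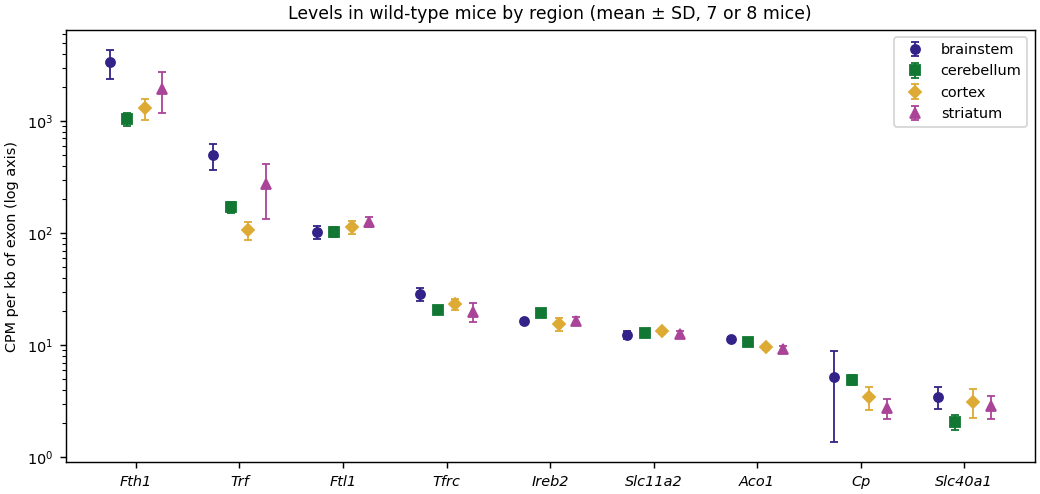
Mean level of each gene in wild-type mice on a log axis, as CPM per kilobase of exon, with 1 symbol per region and SD as error bars (7 or 8 mice). Fth1 lay highest in every region, at up to 3350 CPM per kb in brainstem, and Slc40a1 and Cp lay lowest.

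Most of the variation of the carrier Trf lay between regions. Over the 53 libraries, 80% of the variance of its log2 CPM lay between regions, 1.58% with genotype and 1.54% with their interaction. Wild-type brainstem held 758.6 to 1709 CPM of Trf (median 1338, n = 8), striatum 417.1 to 1456 (median 557.3, n = 8), cerebellum 363.4 to 502.4 (median 430.9, n = 7) and cortex 176.7 to 333.2 (median 279.6, n = 7). No wild-type brainstem or striatal library was as low as any in cortex, and means ran from 1274 ± 333.2 CPM in brainstem (SD) to 275.5 ± 51.34 CPM in cortex, a fold of 4.62. Over all mice, each step in the order passed edgeR's likelihood ratio test, with a false discovery rate (FDR) over all genes: log2 differences were 0.86 for brainstem minus striatum (SE 0.18, FDR 6.3e-06), -0.68 for cerebellum minus striatum (FDR 0.00061) and 0.67 for cerebellum minus cortex (SE 0.19, FDR 9e-04). Cerebellum against striatum lost its call without the 2 striatal libraries high in thalamus markers (-0.26, FDR 0.12) and in the mice numbered 9083371 to 9083515 alone (-0.30, FDR 0.14), and brainstem against striatum in those numbered 7267054 to 7267059 alone (0.45, FDR 0.38). Trf lies at 103204001 to 103230444 on the minus strand of chromosome 9 (GRCm38, as for all positions here).

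The receptor Tfrc, which brings transferrin into the cell (chromosome 16, 32608920 to 32632794, plus strand), varied far less. Its wild-type values were 116.1 to 164.6 CPM in brainstem (median 139.9), 92.54 to 128.8 in cortex (median 116.3), 85.59 to 111.7 in cerebellum (median 103.6) and 75.47 to 120.7 in striatum (median 98.99). Brainstem overlapped cortex and striatum but lay wholly above cerebellum. Brainstem exceeded cortex by 0.29 on the log2 scale (SE 0.11, FDR 0.011), a call lost with RIN as a covariate (0.20, FDR 0.076). Cerebellum was not told apart from cortex (FDR 0.14) or striatum (FDR 0.6). Cortex over striatum narrowly missed the threshold (0.24, FDR 0.064) and passed in 7 of 28 alternatives, among them the mouse as a fixed block (0.26, FDR 0.0033), RIN as a covariate (FDR 0.013) and the fit without mouse 9083375 (FDR 0.041).

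DMT1 (Slc11a2), the endosomal iron importer on chromosome 15 (100387898 to 100425072, minus strand), was the flattest of the 9 across regions. Wild-type medians were 70.26 CPM in brainstem, 73 in cerebellum, 76.68 in cortex and 72.45 in striatum, and all 30 wild-type libraries lay between 65.19 and 81.65 CPM. The largest difference, brainstem minus cortex, was -0.095 on the log2 scale with a 95% interval of -0.18 to -0.01. It narrowly missed the threshold (FDR 0.052) and passed in 8 of 28 alternatives, among them the quasi-likelihood F test (FDR 0.033), the mouse as a fixed block (FDR 0.037) and the fits without mouse 7267055 (-0.135, FDR 0.009) or 9083373 (FDR 0.039). Slc11a2 overlaps Gm5475 on the opposite strand over 94 exonic bases, and the libraries carried no strand information.

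The ferritin subunits differed from each other in their regional order. Fth1, the ferroxidase subunit (chromosome 19, 9980598 to 9985098, plus strand), followed Trf in being highest in brainstem, with 1792 to 4239 CPM (median 3293), and next in striatum, with 1050 to 3460 CPM (median 1668). Cortex held 768.4 to 1499 CPM (median 1241) and cerebellum 783.1 to 1135 CPM (median 968). Every wild-type brainstem library was above every wild-type cortical and cerebellar library. Brainstem exceeded striatum by 0.78 on the log2 scale (SE 0.17, FDR 2e-05), a fold of 1.71, and cerebellum by 1.69 (SE 0.18, FDR 4.3e-19), a fold of 3.22. Cortex was below striatum, at a log2 difference of -0.59 (SE 0.18, FDR 0.0048), which was -0.36 (FDR 0.082) without the striatal libraries high in thalamus markers and was not called in either series of mouse numbers alone (-0.38, FDR 0.23, and -1.06, FDR 0.095). It was -0.31 (FDR 0.11) without the 2 libraries high in choroid plexus markers, the cortex of wild-type mouse 7267055 and the striatum of 7267059. Cortex against cerebellum missed the threshold unpaired (FDR 0.11) and passed with the mouse as a block (FDR 0.016) and without the libraries high in choroid plexus markers (FDR 0.018).

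Ftl1, the light subunit that favours iron core formation (chromosome 7, 45457944 to 45459884, minus strand), was highest in striatum. There it lay between 104.5 and 143.2 CPM (median 119.1), against 88.79 to 135 in cortex (median 106.6), 91.45 to 121 in cerebellum (median 97.28) and 83.53 to 120 in brainstem (median 97.75). These ranges overlapped throughout. The log2 difference from striatum was -0.31 for brainstem (SE 0.08, FDR 0.00047) and -0.28 for cerebellum (SE 0.09, FDR 0.0018; 0.084 and 0.098 in the mice of each number series alone), while striatum and cortex did not differ beyond their spread (FDR 0.16). With the mouse as a block, cortex also exceeded brainstem (FDR 0.031, unpaired 0.095, also 0.031 without mouse 7267059 and 0.029 where RIN was 7 or more) and cerebellum (FDR 0.043, unpaired 0.17).

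Ferroportin (Slc40a1), the only known cellular iron exporter (chromosome 1, 45908068 to 45926523, minus strand), was lowest in cerebellum. Wild-type cerebellum held 4.989 to 8.568 CPM (median 6.994), striatum 7.398 to 13.98 (median 8.729), cortex 7.969 to 17.14 (median 9.527) and brainstem 8.27 to 16 (median 11.29). A single cerebellar library lay within the cortical and brainstem ranges. Brainstem exceeded cerebellum by 0.75 on the log2 scale (SE 0.14, FDR 5.2e-07). Cerebellum differed from cortex by -0.60 (FDR 1e-04) and from striatum by -0.47 (FDR 0.0022). Cortex was not told apart from brainstem (FDR 0.36) or striatum (FDR 0.48). Brainstem over striatum narrowly missed the threshold (0.28, FDR 0.059) and passed in 6 of 28 alternatives, among them limma-voom without a block (FDR 0.027), the mouse as a fixed block (FDR 0.00034) and the fit without mouse 9083375 (FDR 0.018).

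Ceruloplasmin (Cp), a copper-containing ferroxidase that astrocytes carry on their surface (chromosome 3, 19957054 to 20009145, plus strand), had an order that moved with 1 library and with the fit. Wild-type brainstem held 15.81 to 83.56 CPM with a median of 23.15, the highest value coming from mouse 7267059, whose brainstem RNA also had the lowest RIN of that region (6.3). The other 7 brainstem libraries lay at or below 28.05 CPM. Cerebellum held 23.53 to 32.55 CPM (median 28.64), cortex 14.04 to 24.99 (median 19.18) and striatum 12.79 to 21.02 (median 15.31). Over all mice brainstem and cerebellum were not told apart (log2 0.06, interval -0.35 to 0.48, FDR 0.79), whereas without mouse 7267059 the difference was -0.36 (FDR 0.032). Brainstem over cortex (0.58, FDR 0.013) was lost in 8 of 28 alternatives, among them the fit without that mouse (0.15, FDR 0.4), the mice numbered 9083371 to 9083515 alone (0.10, FDR 0.71), limma-voom (0.37, FDR 0.1), RIN as a covariate (0.34, FDR 0.16) and the mouse as a block (0.32, FDR 0.13). Cerebellum over striatum (0.84, SE 0.21, FDR 0.00017) and brainstem over striatum (0.91, FDR 3.9e-05) remained called without it, at 0.91 and 0.55, and cortex over striatum (0.33, FDR 0.23) became called (0.40, FDR 0.03). Cerebellum over cortex (0.51, FDR 0.031) was lost without mouse 7267058, 9082857 or 9083373 (FDR 0.057, 0.069 and 0.093). Cp overlaps Hps3 on the opposite strand over 108 exonic bases.

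The regulators had different orders. IRP2 (Ireb2; chromosome 9, 54863789 to 54912530, plus strand) was highest in cerebellum, with 102.3 to 119.5 CPM (median 113.5), against 83.49 to 106.1 in striatum (median 94.93), 86.34 to 104.5 in brainstem (median 95.12) and 79.88 to 113 in cortex (median 87.18). Brainstem differed from cerebellum by -0.24 on the log2 scale (SE 0.07, FDR 0.0011). Cerebellum exceeded striatum by 0.24 (SE 0.07, FDR 0.0012) and cortex by 0.34 (SE 0.07, FDR 7.2e-06), and the other 3 regions were not told apart (FDR 0.21 to 0.99). Without the libraries high in choroid plexus markers, Ireb2 in cortex was below brainstem (0.17 for brainstem minus cortex, FDR 0.022) and striatum (-0.17 for cortex minus striatum, FDR 0.037), and brainstem against cortex was also called without mouse 7267055 (FDR 0.028). IRP1 (Aco1; chromosome 4, 40143081 to 40198338, plus strand), which doubles as cytosolic aconitase when it holds an iron-sulfur cluster, was highest in brainstem (41.65 to 46.31 CPM, median 43.41), ahead of cerebellum (37.65 to 44.78, median 41.75), cortex (33.2 to 39.58, median 36.92) and striatum (33.14 to 39.01, median 35.2). Its brainstem and striatal ranges did not overlap. Aco1 in cerebellum exceeded cortex by 0.15 (SE 0.05, FDR 0.0023), while cortex against striatum (0.06, FDR 0.33) missed the threshold. Brainstem over cerebellum (0.09) depended on the tool, with an FDR of 0.072 by edgeR's likelihood ratio test, 0.047 by its quasi-likelihood F test, 0.041 by DESeq2 and 0.045 by limma-voom.

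Counted over the 9 genes, 5 were called at an FDR below 0.05 between wild-type brainstem and cerebellum, 5 between brainstem and cortex, 6 between brainstem and striatum, 5 between cerebellum and cortex, 7 between cerebellum and striatum and 2 between cortex and striatum. Over all genes the shares called in the same order were 72.6%, 65.4%, 64.2%, 69.7%, 69.5% and 34.4%, so the counts were near the background. With the mouse as a fixed block the counts were 5, 6, 7, 7, 7 and 3 of the 9, and the shares of all genes 74.7%, 67.4%, 68%, 71.3%, 71.9% and 37.2%. The mice numbered 7267054 to 7267059 alone, with 2 or 3 wild-type mice a region, called fewer of the 9 genes and fewer of all genes in each comparison. Among them several differences were smaller as well as not called: Fth1 in brainstem over striatum was 0.51 (FDR 0.39), Tfrc in brainstem over cortex 0.17 (FDR 0.4), Slc40a1 in cerebellum minus cortex -0.31 (FDR 0.24), Ireb2 in cerebellum over cortex 0.22 (FDR 0.23) and Aco1 in cerebellum over striatum 0.14 (FDR 0.31).

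**Figure D2:**
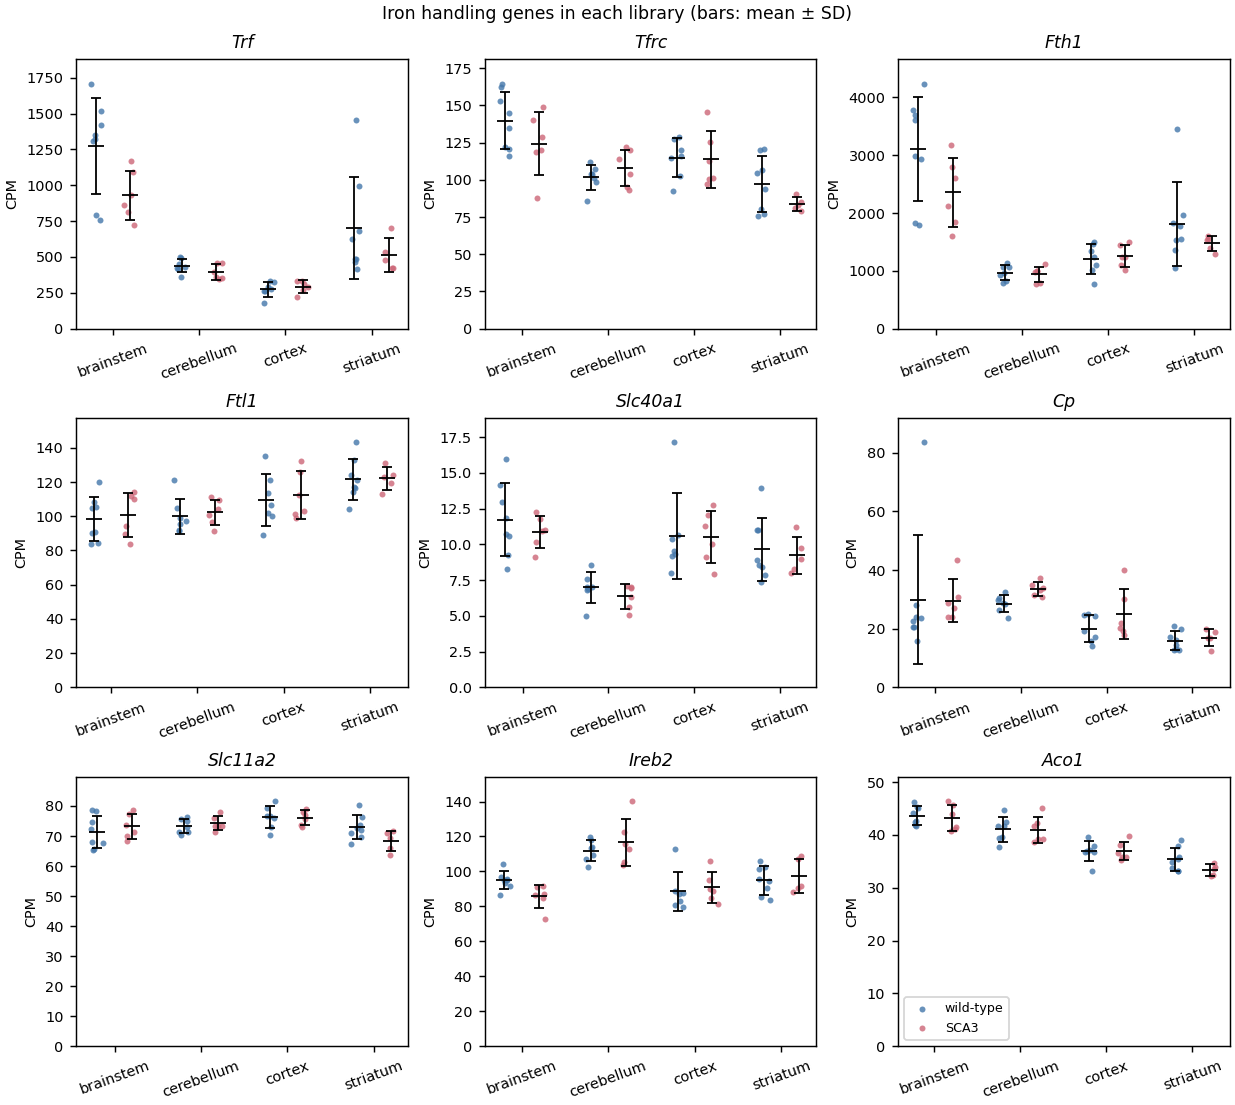
CPM of each gene in every library, by region, with wild-type mice in blue and SCA3 mice in red (5 to 8 per group) and bars for mean ± SD; each axis starts at 0. SCA3 and wild-type values overlapped for all 9 genes in all 4 regions. The share of all genes with overlapping groups was not computed, so this does not set the 9 apart. Among them, regions differed most for Trf and Fth1.

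The genotype comparison asked whether mutant ataxin-3 shifts these messages. At an FDR below 0.05, edgeR's likelihood ratio test called 0 of the 9 genes in brainstem, where 1.92% of all genes were called, 0 in cerebellum (0.0647% of all genes), 0 in cortex (0.154%) and 0 in striatum (7.54%). The combined test for an effect in any region called 0 (4.73% of all genes), as did the test of whether the effect depends on region (0.218%). At an unadjusted p below 0.05 there were 3 in brainstem (Trf, Fth1 and Ireb2; 13.3% of all genes), 0 in cerebellum (1.66%), 0 in cortex (4.07%), 1 in striatum (Trf; 23.2%), 1 in the combined test (Trf; 16.6%) and 0 for region dependence (9.09%). The quasi-likelihood F test, DESeq2 and limma-voom called 0 in each of these 6 tests. At an unadjusted p below 0.05 they gave 2 or 3 genes in brainstem and 1 or 2 in striatum. Median log2 fold changes of the 9 were -0.11, 0.02, 0.04 and -0.08 in brainstem, cerebellum, cortex and striatum, against 0.003, -0.004, -0.002 and -0.003 over all genes, with 7, 4, 3 and 6 of the 9 lower in SCA3.

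Trf showed the lowest fold changes. In SCA3 brainstem it held 720.9 to 1170 CPM (median 897.2, n = 6), against 758.6 to 1709 in wild-type (median 1338, n = 8). The groups overlapped through wild-type mice 7267055 and 9083373, with 794.3 and 758.6 CPM, while the other 6 wild-type mice lay at or above 1310. The lowest SCA3 values, 720.9 and 813.2 CPM, came from mice 9083515 and 9083514. These mice and wild-type 7267055 and 9083373 gave the brainstem libraries highest in thalamus markers. They held 1.61, 1.41, 1.54 and 1.42 times the region's median in that order, against at most 1.16 in the others. The part of thalamus markers in the Trf values was not tested. The log2 fold change was -0.45 (SE 0.19, 95% interval -0.83 to -0.07), with an FDR of 0.26. It was -0.37 with RIN as a covariate (FDR 0.53), -0.40 among the mice numbered 9083371 to 9083515 and -0.59 among the 5 numbered 7267054 to 7267059.

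In striatum the 5 SCA3 mice had 420.9, 423.7, 482.3, 535.7 and 703.9 CPM of Trf, and the 8 wild-type mice 417.1 to 1456 CPM (median 557.3). The highest wild-type values, 995.9 and 1456 CPM, belonged to mice 7267058 and 7267059, the libraries with most thalamus marker RNA, and the remaining 6 wild-type mice had 417.1 to 678.7 CPM, close to the SCA3 range. Over all libraries the log2 fold change was -0.45 (SE 0.20, interval -0.85 to -0.05, FDR 0.16). Without those 2 libraries it was -0.04 (FDR 0.95). It was -0.10 (FDR 0.95) in the mice numbered 9083371 to 9083515 and -1.11 (FDR 0.029) in the 5 numbered 7267054 to 7267059, which include both libraries. The log2 fold change of Trf was -0.15 in cerebellum (interval -0.54 to 0.24; 0.02 in the mice numbered 9083371 to 9083515) and 0.09 in cortex (interval -0.30 to 0.48), where the groups also overlapped.

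Fth1 resembled Trf. SCA3 brainstem held 1604 to 3171 CPM (median 2362) and wild-type brainstem 1792 to 4239 (median 3293), the 2 low wild-type libraries again being those of mice 7267055 and 9083373. The lowest SCA3 values, 1604 and 1851 CPM, again came from mice 9083515 and 9083514. As given for Trf, these were the brainstem libraries highest in thalamus markers, whose part in the Fth1 values was not tested. The log2 fold change was -0.40 (SE 0.19, interval -0.76 to -0.04, FDR 0.32). In striatum the SCA3 values were 1294, 1397, 1536, 1551 and 1602 CPM and the wild-type values 1050 to 3460 (median 1668), with mouse 7267059 alone above 1970. The striatal fold change of -0.30 (interval -0.68 to 0.08, FDR 0.36) was -0.07 without the libraries high in thalamus markers. In cerebellum (-0.04, interval -0.41 to 0.33) and cortex (0.06, interval -0.31 to 0.43) the groups overlapped.

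**Figure D3:**
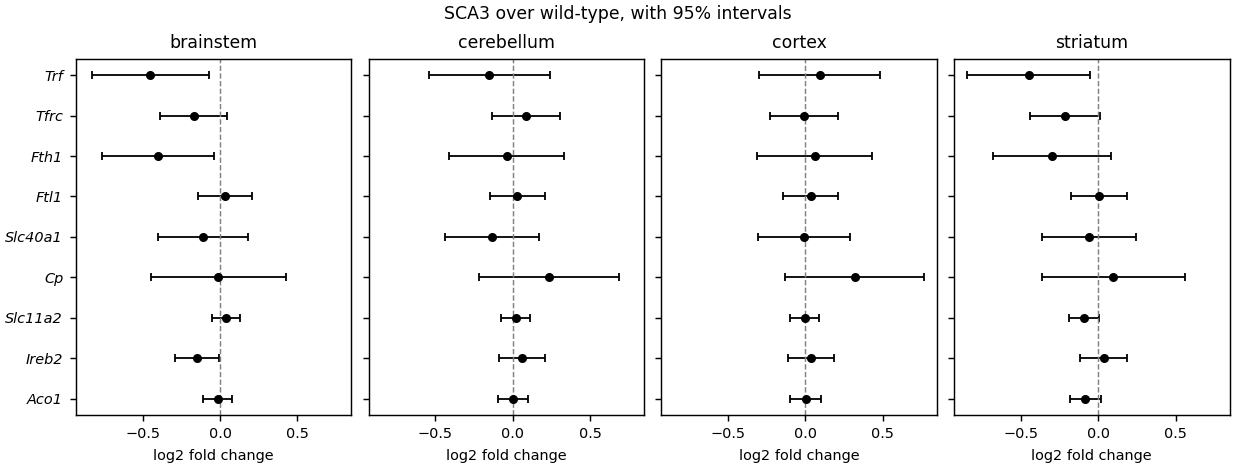
Log2 fold change of SCA3 over wild-type for each gene in each region, with 95% intervals from the fit over all 53 libraries. Intervals excluded 0 for Trf, Fth1 and Ireb2 in brainstem and Trf in striatum, but 0 of 9 genes passed an FDR of 0.05 in any region.

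Markers of mature oligodendrocytes were lower in brainstem and striatum, where Trf and Fth1 had their lowest fold changes. The summed CPM of 15 such markers (Mbp, Mog and others, all 15 with a row and none among the 9 genes) was 10420 to 17420 in SCA3 brainstem (median 13240) and 11240 to 23440 in wild-type brainstem (median 20450), and 14 of the 15 were lower, 4 of them called, where 1.92% of all genes were called. In striatum it was 6756 to 10360 (median 7369) against 7181 to 21140 (median 9487), with 6 of 15 called lower, where 7.54% of all genes were called. The highest wild-type striatal sums, 15260 and 21140 CPM, came from mice 7267058 and 7267059, the libraries high in thalamus markers, and the other 6 lay between 7181 and 13240. Markers of other cells differed too. Of 12 astrocyte markers 3 were called lower in brainstem and 5 in striatum, of 12 microglia markers 1 and 0, and of 12 neuron markers 0 and 3. Of 8 oligodendrocyte precursor markers, 2 were called higher in brainstem. All 11 striatum markers with a row had higher values in SCA3 striatum (median log2 fold change 0.47), with 0 called. The part of these markers in the values of the iron genes was not tested, and the oligodendrocyte ratio given next does not test it. In bulk tissue, fewer cells of a type and less RNA per cell cannot be told apart.

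The ratio of each gene to the oligodendrocyte marker sum was a measure chosen after the values had been seen. It differed less between genotypes than the gene's CPM in brainstem, but not in every region. Brainstem held 62.7 to 73.7 CPM of Trf per 1000 CPM of markers in SCA3 (median 68.2) and 60.3 to 75.5 in wild-type (median 68.1), a log2 difference of 0.02 (exact two-sided permutation p = 0.76). For Fth1 the brainstem ratio averaged 170 ± 11.4 (SD) over 6 SCA3 mice and 164 ± 18.2 over 8 wild-type mice, a log2 difference of 0.06 (exact permutation p = 0.43). The striatal differences were 0.14 for Trf and 0.26 for Fth1 (exact permutation p = 0.067 and 0.089), against 0.04 and 0.15 in cerebellum. In cortex they were 0.16 and 0.13. All 8 ratios tested were thus higher in SCA3. The log2 fold change of the CPM was smaller for Fth1 in cerebellum (-0.04) and cortex (0.06) and for Trf in cortex (0.09). The smallest p was that of the Trf ratio in cortex (exact permutation p = 0.019, 0.15 after Benjamini-Hochberg adjustment). A ratio within a library shows how 2 quantities moved relative to each other, not that either stayed the same.

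**Figure D4:**
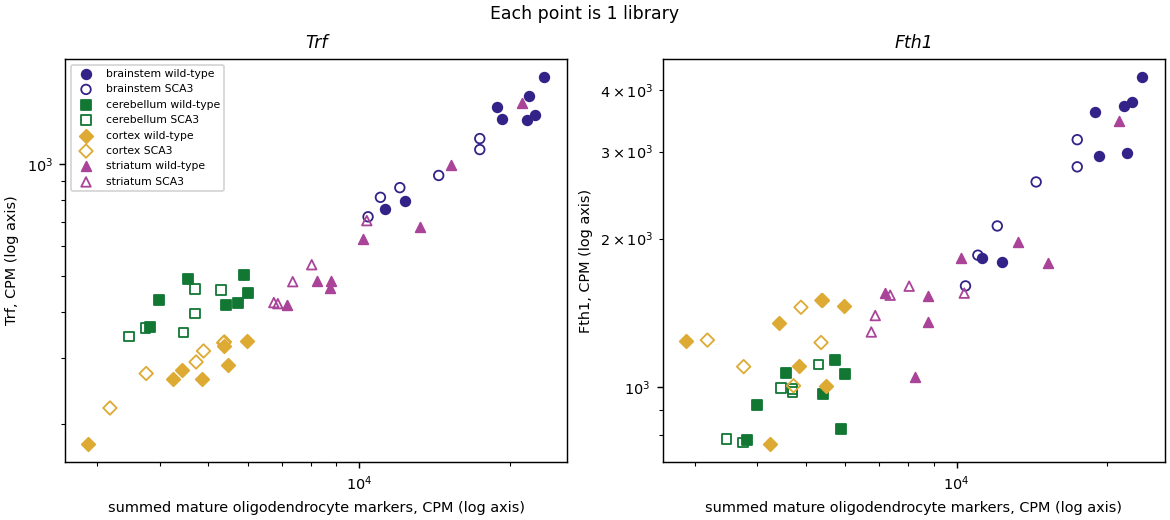
CPM of Trf and Fth1 against the summed CPM of 15 mature oligodendrocyte markers, both on log axes, with 1 point per library (filled for wild-type, open for SCA3, shape and colour by region). The cortical libraries lie lowest in Trf, the wild-type ones at 176.7 to 333.2 CPM, and the wild-type striatal library at 21140 CPM of markers held 1456 CPM of Trf, within the brainstem range.

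Among the remaining genes, IRP2 (Ireb2) in SCA3 brainstem held 72.9 to 91.65 CPM (median 86.77) against 86.34 to 104.5 in wild-type (median 95.12). Mouse 9083514 gave the value of 72.9, and the groups overlapped between 86.34 and 91.65 CPM. The log2 fold change was -0.15 (SE 0.07, interval -0.29 to -0.004, FDR 0.36) and -0.11 with RIN as a covariate (FDR 0.67). In the other regions Ireb2 lay between 0.04 and 0.06 above wild-type on the log2 scale, with intervals from -0.12 to 0.21.

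Tfrc had log2 fold changes of -0.17 in brainstem (interval -0.39 to 0.04) and -0.21 in striatum (interval -0.44 to 0.01, FDR 0.25). These were -0.10 in brainstem with RIN as a covariate or without mouse 9083514, and -0.13 in striatum without the libraries high in thalamus markers. Its 5 SCA3 striatal values of 78.8, 81.24, 83.33, 85.15 and 90.53 CPM all lay inside the wild-type range of 75.47 to 120.7. In cerebellum and cortex Tfrc differed by 0.09 and -0.01. Slc11a2 in striatum held 63.81, 66.01, 69.4, 70.89 and 71.66 CPM in SCA3 mice against 67.23 to 80.3 in wild-type (median 72.45), a log2 fold change of -0.09 (interval -0.19 to 0.004, FDR 0.24), and differed by at most 0.04 elsewhere.

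Over all mice Cp had its largest fold changes in cortex and cerebellum, neither of them called. SCA3 cerebellum held 30.72 to 37.2 CPM (median 33.52) against 23.53 to 32.55 in wild-type (median 28.64), a log2 fold change of 0.23 (SE 0.23, interval -0.22 to 0.68, FDR 1). Summed choroid plexus markers were also higher in SCA3 cerebellum, at 1118 to 3040 CPM (median 1816) against 147.2 to 3313 (median 395), with 4 of 12 markers having a row and 0 called. Their part in the Cp values was not tested. In cortex the Cp fold change was 0.32 (interval -0.13 to 0.77), with SCA3 values of 17.77 to 39.93 CPM (median 21.23). The highest was that of mouse 9083514, without which the fold change was 0.14. In brainstem it was -0.01 over all mice and 0.42 (FDR 0.18) without wild-type mouse 7267059.

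For Ftl1, Slc40a1 and Aco1 the intervals included 0 in every region. Ftl1 differed by 0.01 to 0.04 on the log2 scale in the 4 regions, and its intervals lay within -0.18 and 0.21. Slc40a1 differed by -0.14 to -0.01, with intervals between -0.44 and 0.29. Its direction turned in cortex (0.15) and striatum (0.04) without wild-type mouse 9083375, and in brainstem (0.07), cortex (0.31) and striatum (0.20) among the mice numbered 7267054 to 7267059. Aco1 differed by less than 0.02 in 3 regions and by -0.08 in striatum (interval -0.18 to 0.02; -0.04 without the libraries high in thalamus markers), where the SCA3 mice had 32.18, 32.44, 33.56, 34.01 and 34.71 CPM and wild-type mice 33.14 to 39.01.

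Likeness to other genes was described by Pearson's r of log2 CPM deviations from the group means over the 53 libraries, which come from 14 mice and share dissection and depth. Trf lay closest to Tmbim1 (r = 0.941), Myo1d (0.938) and Prr5l (0.928), and correlated with the mature oligodendrocyte sum at 0.927. Fth1 lay closest to Trp53inp2 (0.884), Tmem189 (0.878) and Gltp (0.834), with 0.737 to the oligodendrocyte sum and 0.735 to Trf, the highest r between any of the 9. The ferritin subunits were less alike, at 0.434 between Fth1 and Ftl1. Ftl1 lay closest to Myl12a (0.742), Bmp6 (0.738) and Sod3 (0.729), and to the microglia sum at 0.549.

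Genes like Cp included Serping1 (0.929) and Pcolce (0.901), and Cp correlated with the microglia sum at 0.589. Its r was 0.437 with the astrocyte sum, 0.423 with the endothelial sum and 0.396 with the mature oligodendrocyte sum. With the oligodendrocyte precursor and choroid plexus sums it was 0.36 and 0.311. Slc40a1 lay closest to Slco1a4 (0.787), a transporter of brain capillaries that is itself in the endothelial list, then Fmnl3 (0.767) and Nxpe4 (0.731), and to the endothelial sum at 0.614. Ireb2 lay closest to the lysosomal gene Tmem106b (0.905), Jrkl (0.872) and the cohesin gene Stag2 (0.85). Tfrc lay closest to Tmem194b (0.758), Map3k7 (0.754) and Zdhhc21 (0.734). Slc11a2 lay closest to Dennd6b (0.808), Cpsf4 (0.789) and B4galnt4 (0.781), and ran against Trf at -0.52. Aco1 had no close neighbour, Rhbdd1 being the nearest at 0.622, followed by C2cd2 (0.611) and Rab23 (0.61).

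The wider iron pathway was covered by 7 further lists, of whose 87 genes 68 had a row. In brainstem, cerebellum and cortex 0 of the 68 were called by edgeR, where 1.92%, 0.0647% and 0.154% of all genes were. In striatum 6 (8.82%) were called, close to the 7.54% of all genes, and in the combined test 4 (5.88%, against 4.73%). An unadjusted p below 0.05 was met by 12 of the 68 in brainstem, 0 in cerebellum, 4 in cortex, 19 in striatum and 14 in the combined test, where 13.3%, 1.66%, 4.07%, 23.2% and 16.6% of all genes met it. Their median log2 fold changes were 0.03, 0.00, -0.01 and -0.02 in brainstem, cerebellum, cortex and striatum.

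By list, the 10 genes of iron uptake and ferrireduction, the 6 of storage and chaperones and the 3 other transcripts known for an iron responsive element had 0 calls in every region. Iron export and systemic control had 1 call in striatum among 4 genes, mitochondrial iron and iron-sulfur clusters 2 of 22, haem handling 1 of 16 and the brain iron accumulation disease genes 2 of 7.

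The striatal gene that rose was Nedd4l, a ubiquitin ligase, with 276.9 to 364.6 CPM in SCA3 (median 324.8, n = 5) against 153.3 to 339.7 (median 216.9, n = 8), a log2 fold change of 0.50 (SE 0.12, FDR 0.0038). Of the 5 genes that fell, Fa2h, which makes the hydroxylated fatty acids of myelin lipids, held 44.19 to 65.36 CPM against 50.26 to 117.9 (log2 fold change -0.59, SE 0.18, FDR 0.029). Cisd3, a mitochondrial iron-sulfur protein, held 6.527 to 8.321 against 7.467 to 10.44 CPM (-0.29, FDR 0.0086).

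Fdxr, which passes electrons to mitochondrial ferredoxins, fell from 16.22 ± 2.362 CPM (SD, n = 8) to 13.6 ± 0.989 (n = 5), a log2 fold change of -0.25 (FDR 0.044). Slc46a1, a folate carrier that also transports haem, changed by -0.25 (FDR 0.034) and Coasy, the last enzyme of coenzyme A synthesis, by -0.24 (FDR 0.0079). The ranges of the groups overlapped for these genes, with 1 or more wild-type libraries inside the SCA3 range. Leaving out 1 mouse in turn lost the call of Fdxr for 8 of 14 mice, Slc46a1 for 8, Fa2h for 5, Cisd3 for 2 (7267056 and 9083515) and Coasy for 1 (7267056), with FDRs of 0.053 to 0.15, and that of Nedd4l for 0.

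Without the 2 striatal libraries high in thalamus markers, 0 of these 6 striatal calls remained. The log2 fold change was then 0.38 for Nedd4l (FDR 0.058), -0.27 for Cisd3 (FDR 0.052), -0.42 for Fa2h (FDR 0.24), -0.18 for Coasy (FDR 0.11), -0.16 for Slc46a1 (FDR 0.29) and -0.15 for Fdxr (FDR 0.38), so that of Cisd3 was close to its value over all libraries. Thalamus markers themselves were lower in SCA3 striatum, at 115.4 to 356.4 CPM (median 132.7) against 118 to 2416 (median 461.7), with 7 of 10 called. In brainstem Fa2h was at -0.49 (FDR 0.13). The genes with the largest fold change of a list that were not called were Steap2, a metalloreductase (striatum -0.64, FDR 0.085, called without mouse 9082853, 9083371 or 9083375 at FDR 0.0067, 0.025 and 0.044 and among the mice numbered 7267054 to 7267059 at 0.032, but -0.20 at FDR 0.74 without the libraries high in thalamus markers), Blvrb, a biliverdin reductase (striatum -0.32, FDR 0.06, called by DESeq2 at FDR 0.047 and, with a covariate for the series of mouse numbers, at 0.046), Bola2 (striatum -0.27, FDR 0.13) and Epas1 (cortex 0.14, FDR 1), which encodes HIF-2 alpha.

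**Figure D5:**
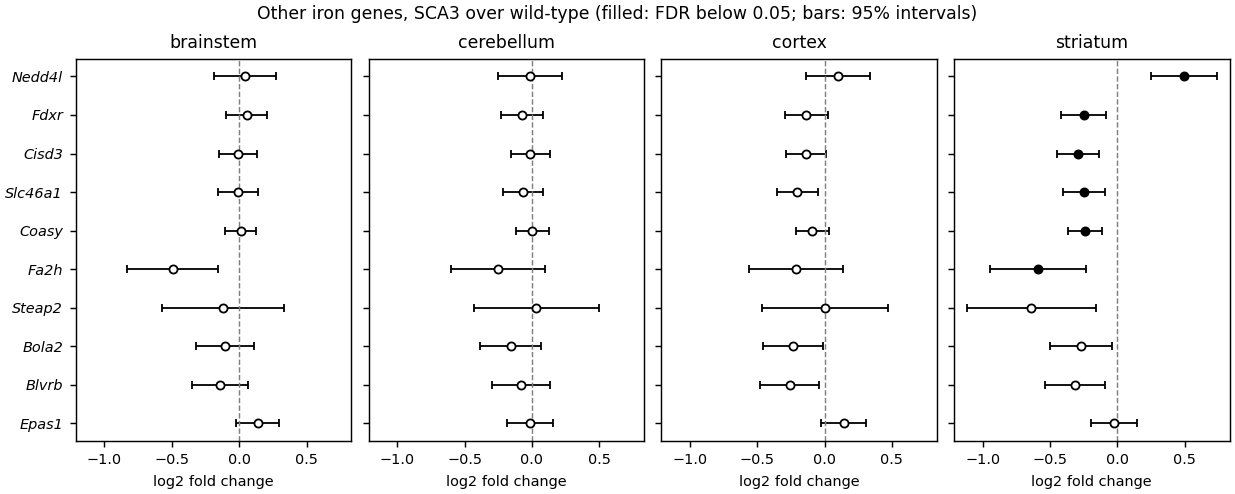
Log2 fold change of SCA3 over wild-type with 95% intervals for the 10 further iron genes named, by region, filled where the FDR was below 0.05. The 6 filled points are all in striatum, from -0.59 (Fa2h) to 0.50 (Nedd4l).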

How the data were processed

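RNA sequencing was analysed for 53 libraries from 14 mice, grouped by the region and genotype in the sample labels. The authors deposited unnormalised counts of reads for each gene. They prepared unstranded poly-A libraries, aligned paired reads to GRCm38 with STAR, keeping unique alignments, and assigned reads to RefSeq genes through HTSeq, ignoring strand. The submitters' processing notes name bcl2fastq 1.8, FastQC 0.11.2, cutadapt 1.10, STAR 2.3.0e, HTSeq 0.6.1 and edgeR 3.14.0. The authors kept genes averaging above 4 CPM, and the table held 12372 genes.

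Here edgeR 4.0.16 (R 4.3.3) was used with TMM normalisation. Following the study, likelihood ratio tests were run on a single fit holding every library, with 8 region-by-genotype groups. Benjamini-Hochberg adjustment covered all genes, and an FDR below 0.05 was called. CPM were computed on totals scaled by TMM, and log2 values used a prior count of 2. Intervals are 1.96 SE to each side. Exact permutation tests (two-sided) were used for RIN and marker ratios. The test was checked on simulated data.

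The alternatives comprised RLE size factors, DESeq2 1.42.0, the quasi-likelihood F test of edgeR, limma-voom (limma 3.58.1) with or without a random block for the mouse, at least 10 counts in every library (12337 genes), RIN or mouse number series as a covariate, libraries with a RIN of at least 7 (49), the mice numbered 9083371 to 9083515 alone, libraries of a region alone, libraries high in thalamus or choroid plexus markers (over 3 times the region's median) left out, the mouse as a fixed block, and each mouse left out in turn. The mice numbered 7267054 to 7267059 alone and the ratio to oligodendrocyte markers were chosen after seeing the data. Mouse numbers pair the libraries of different regions, since they mark 1 animal each. Within an animal, departures from group means had a mean r from 0.0904 to 0.186 over the pairs of regions (12 or 13 mice). Genotype does not vary within a mouse.

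Genes named were the 9 iron genes, genes of the 7 other iron lists that were called in a region or in the combined test, the gene of each list with the largest fold change, and the 3 genes most like each of the 9, of which 1 is not reported here. The genes and lists were chosen with earlier results of these data known. Positions, exon lengths (transcripts linked to RefSeq) and UTR sequences come from GENCODE annotation of GRCm38.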

Additional observations from a re-analysis of the deposited data

Results flagged for a closer look

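Among 152 groups of libraries (the 9 iron genes and the 10 further iron genes named, in 8 groups of region and genotype), 10 held a value far from the rest by Dixon's criterion, which chance meets in about 1 of 20 groups. Wild-type mouse 7267059 accounted for 3 of them: Fth1 in striatum at 3460 CPM (next 1970), Epas1 in striatum at 222.9 CPM (next 176.6) and Cp in brainstem at 83.56 CPM (next 28.05). Its striatal library was also the highest in thalamus markers.

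SCA3 mouse 7267054 had the highest Cp in SCA3 brainstem (43.39 CPM, next 30.73) and the highest Fdxr in SCA3 striatum (15.37 CPM). SCA3 mouse 9083514 had the lowest Ireb2 in SCA3 brainstem (72.9 CPM, next 84.96) and the highest Coasy in SCA3 striatum (21.94 CPM). In cortex, wild-type mouse 9083375 had the highest Slc40a1 (17.14 CPM, next 10.64), wild-type mouse 7267055, whose cortical library was high in choroid plexus markers, the highest Ireb2 (113 CPM, next 89.06), and SCA3 mouse 7267056 the highest Steap2 (36.72 CPM, next 22.06). Dependence of the genotype effect on region was called for 0 of the 9 genes (lowest FDR 0.76, for Trf and Ireb2).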

How the results depend on the processing

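For the 9 genes, the number called was recomputed 335 times over the 12 comparisons. Among 167 alternatives of the 6 genotype tests, 1 called a gene: the mice numbered 7267054 to 7267059 alone gave 1 in striatum (Trf), where 18.6% of all genes were then called. That setting, added after seeing the data, gave 2, 3, 1, 2 and 1 genes for wild-type brainstem against cortex, brainstem against striatum, cerebellum against cortex, cerebellum against striatum and cortex against striatum, with 2 or 3 wild-type mice a region and 34.1%, 19.2%, 44.2%, 43.7% and 14.4% of all genes. RIN as a covariate gave 3 for brainstem against cortex (62.4% of all genes), and the mice numbered 9083371 to 9083515 alone gave 1 for cortex against striatum (10.9%). Brainstem against cerebellum reversed for Cp, to -0.363 where RIN was 7 or more and to -0.362 without mouse 7267059, and leaving out each mouse in turn gave -0.362 to 0.168. The cause of these shifts was not tested, and the settings of a number series alone also held fewer mice. In the 1008 fold changes of the 9 genes between genotypes, 88 had the other sign from the value over all libraries, none of them called.

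With the mouse as a fixed replicate block, region dependence of the genotype effect called 0 of the 9 genes and 36 of all genes, and the block changed no call beyond those given for wild-type regions. The limma-voom fit with a random block for the mouse also called 0 in each genotype test. Of 280 fold changes of the further iron genes, 60 lost and 6 gained a call, all with the same direction. In striatum alone, among the mice numbered 9083371 to 9083515, and where RIN was 7 or more, 0 of the 6 striatal calls remained, and 3 without libraries high in choroid plexus markers. A lost call was not always a smaller change: Cisd3, at -0.292 over all libraries, was -0.291, -0.25 and -0.296 in those first 3 settings, and Nedd4l, at 0.496, was 0.50, 0.51 and 0.47. With 5 to 8 mice a group, the 95% interval of the genotype difference ran from -0.365 to 0.558 for Cp and from -0.851 to -0.05 for Trf in striatum, so small changes of these genes were not detectable.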
